A study of Mus musculus with 6 samples.

Results

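Heat shock proteins, their J-domain partners, the chaperonins and the regulators of these genes were examined in mouse Lewis lung carcinoma (LLC) cells, a transplantable line from a lung tumour. The members were the protein-coding genes of the count table whose symbols are those of heat shock proteins (Hspa, Hspb, Hspd, Hspe, Hsph, Hsp90), J proteins (Dnaja, Dnajb, Dnajc), subunits of the cytosolic chaperonin (Tcp1 and Cct genes), the HSP70-binding protein Hspbp1, Hspbap1, the heat shock factors Hsf1 and Hsf2, Bag1 to Bag6, Stip1 and Ahsa1. They were 87 of 24794 genes listed, and 78 of the 13779 genes that passed the filter on low counts. Polyadenylated RNA was sequenced from 3 libraries of cells transfected with miR-291-3 mimics and from 3 libraries of cells transfected with a control mimic. Both groups were the same line and both were transfected, and the labels give neither a dose nor a time. The design text of the series names miR-291a-3p as the microRNA under study.

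Chaperones hold unfinished or damaged proteins so that they can fold. HSP70 proteins bind short exposed stretches in a cycle driven by ATP, J proteins hand them their clients, and HSP110 and BAG proteins release the nucleotide that ends each cycle. HSP90 acts late, on kinases and receptors that are nearly folded, and Stip1 (Hop) passes clients to it from HSP70. The cytosolic chaperonin CCT (TRiC) is a double ring of different but related subunits that folds actin and tubulin, while Hspd1 (HSP60) with its lid Hspe1 (HSP10) does the same work in mitochondria. The endoplasmic reticulum (ER) has its own set, led by Hspa5 (BiP) and Hsp90b1 (GRP94). Hsf1 is the transcription factor that switches on many of the cytosolic genes after heat.

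MicroRNAs bind messenger RNAs through their seed, bases 2 to 8, shown in capitals in the following sequences from RefSeq (GRCm38.p6). The labels write miR-291-3 without the letter, and the b form of the cluster, given for comparison, has another last seed base.
mmu-miR-291a-3p: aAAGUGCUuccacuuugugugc
mmu-miR-291b-3p: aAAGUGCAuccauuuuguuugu

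The 3' UTRs searched for seed matches were those of GENCODE M21 on GRCm38, an older build than the GRCm39 named for the deposited tables. An 8mer site is AGCACTTA, a 7mer-m8 site AGCACTT and a 7mer-A1 site GCACTTA. A gene was counted if any of its protein-coding transcripts held a site. Of the 77 tested members with an annotated 3' UTR, 14 held at least one of these (18.2%), against 22.4% of all 11574 tested genes with a 3' UTR. Sites of members named in the results are shown with their flanks from the transcript, the match in capitals. Each is the first match of the gene's best kind, in the order of kinds given above. Dnajb14, Dnajc16 and Hspa13 each hold 2 sites of 7 or 8 bases, of which 1 is shown. The sites shown cover the 4 members with an 8mer and the 2 members with a 7-base site that fell in the ER set.
Dnaja1: ctcccccttatgAGCACTTAtggtaaag
Dnajb14: ccacttagactgAGCACTTAgtggtcat
Dnajc1: ccatgagtagctAGCACTTAattttttt
Dnajc16: atttaagatggcAGCACTTAgtcctacc
Dnajb9: agtcactcttttGCACTTAtctttatc
Hspa13: tgaaaaagatcaAGCACTTcagcttcc

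These sites lie in exons, inside the annotated 3' UTR. The Dnajb9 site is at chr12:44206152-44206158 on the minus strand, at positions 796 to 802 of the 1395 in its 3' UTR. The site shown for Dnajb14 is at chr3:137912654-137912661 on the plus strand, bases 4185 to 4192 of 8088. The Dnaja1 site, at chr4:40737106-40737113 on the plus strand, lies near the end of its 3' UTR, at bases 4160 to 4167 of 4203. That of Dnajc1, at chr2:18207285-18207292 on the minus strand, is missing from the transcript with the longest coding sequence. Those shown for Dnajc16 and Hspa13 are at chr4:141762622-141762629 and chr16:75756534-75756540, both on the minus strand.

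Library depth was 25376993 to 29058948 counts in mimic libraries and 28318155 to 32963986 in control libraries. Whether the 3 libraries of a group are separate cultures is not stated in the labels, and p-values therefore cover only their own spread, possibly a technical one. Of the 4 epithelial markers, keratin 8 (Krt8) had 552 CPM in mimic and 493 CPM in control libraries and the low Krt18 had 3.65 CPM in mimic and 1.97 CPM in control libraries, both risen. The 3 mesenchymal markers summed to 476 to 493 FPKM in mimic and 482 to 491 FPKM in control libraries, but Sparc rose by 0.58 on the log2 scale while Fn1 and Vim had changes of -0.83 and -0.14, both past the threshold. Epcam and Cdh1 were near 0, with 5 and 14 counts over all libraries, and the lung marker Sftpb had 1 count. The 4 leukocyte markers summed to 0.77 to 1.13 FPKM in mimic and 0.88 to 1.45 FPKM in control libraries, and the 3 fibroblast markers to 1.66 to 2.33 FPKM in mimic and 2.48 to 2.83 FPKM in control libraries. The part of these markers in the results was not tested.

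Of the 78 tested members, 34 rose and 14 fell in mimic libraries (edgeR's quasi-likelihood test; p-values adjusted by Benjamini-Hochberg over all genes, threshold 0.05). Among all tested genes 24.3% rose and 24.8% fell, against 43.6% and 17.9% of the tested members. The changes were small: 39 of the 48 called members stayed under a 1.2-fold change. The 3 that reached 1.5-fold were Hspb6, Hspa1l and Dnajb9, all of them lower. Members took 2.74% ± 0.0149 of all counts in mimic libraries and 2.61% ± 0.00857 in control libraries (SD, n = 3 each). These values are relative to the rest of each library, and fewer cells expressing a gene cannot be told apart from less RNA per cell. The split depends on the scaling: with total counts in place of TMM, 27 members rose and 24 fell, while among all genes 2341 rose and 4444 fell.

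**Figure D1:**
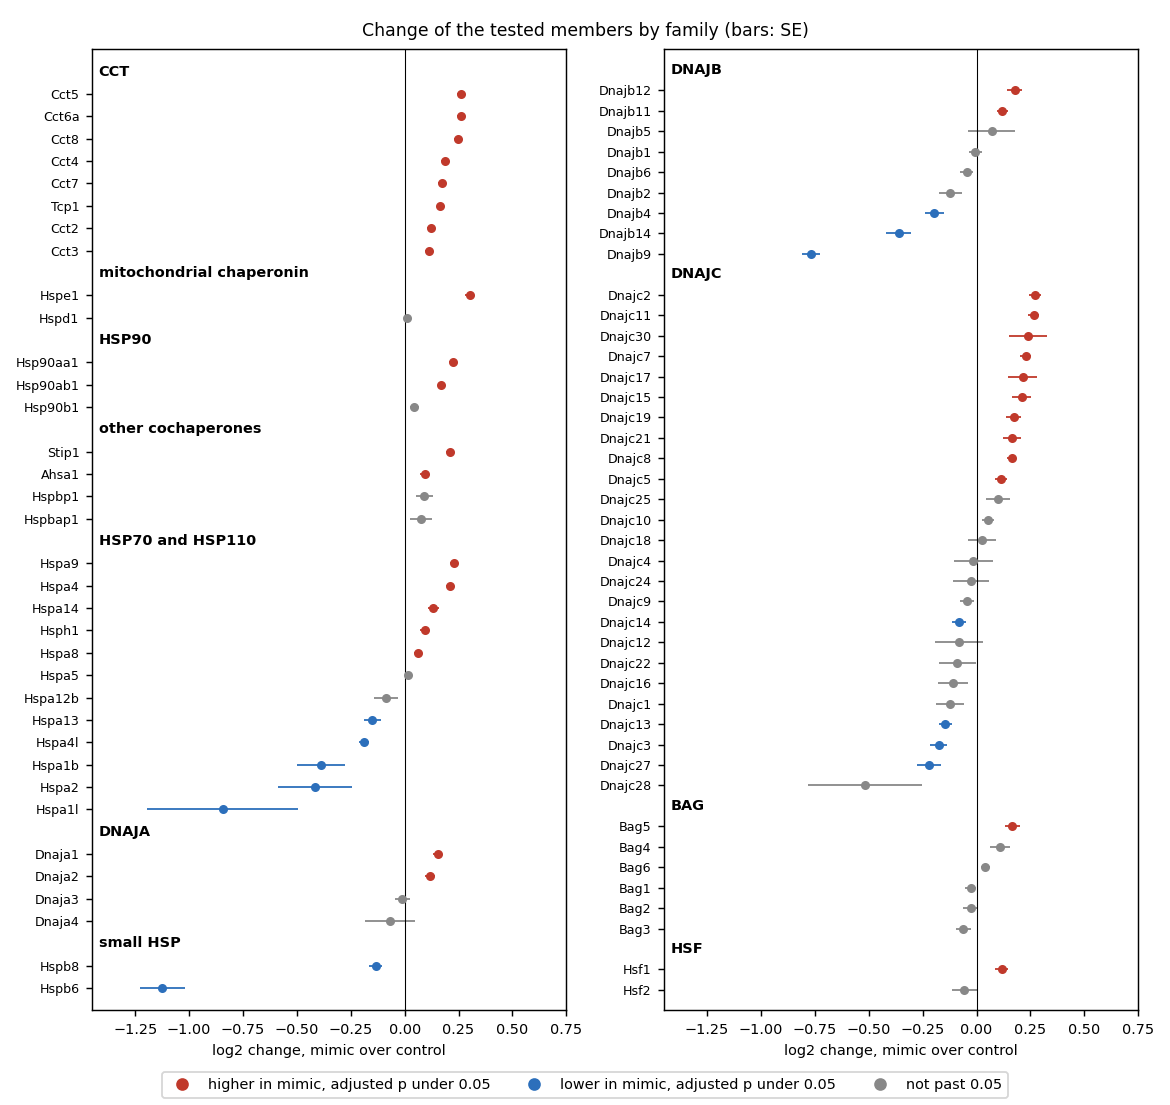
Log2 change of 77 of the 78 tested members, mimic over control, with its SE, by family; red marks members higher and blue members lower at an adjusted p under 0.05, grey the rest. All 8 CCT subunits lie right of 0, both small heat shock proteins lie left of it, and the J proteins spread over both sides.

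The most abundant members were mostly higher, as were the most abundant genes of the table. Of the 22 members with a mean of at least 50 FPKM, 18 rose and none fell. That share, 81.8%, stood beside 66.9% risen and 16.2% fallen among all 915 tested genes at this level, which was chosen after the values were seen. The 4 that did not pass were Hsp90b1, Hspa5, Hspd1 and Bag1. Of the 56 tested members below 50 FPKM, 28.6% rose and 25% fell, beside 21.3% and 25.5% of all 12864 tested genes below it. The median log2 change was 0.17 for members and 0.11 for all genes above the limit, and -0.02 for both below it.

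**Figure D2:**
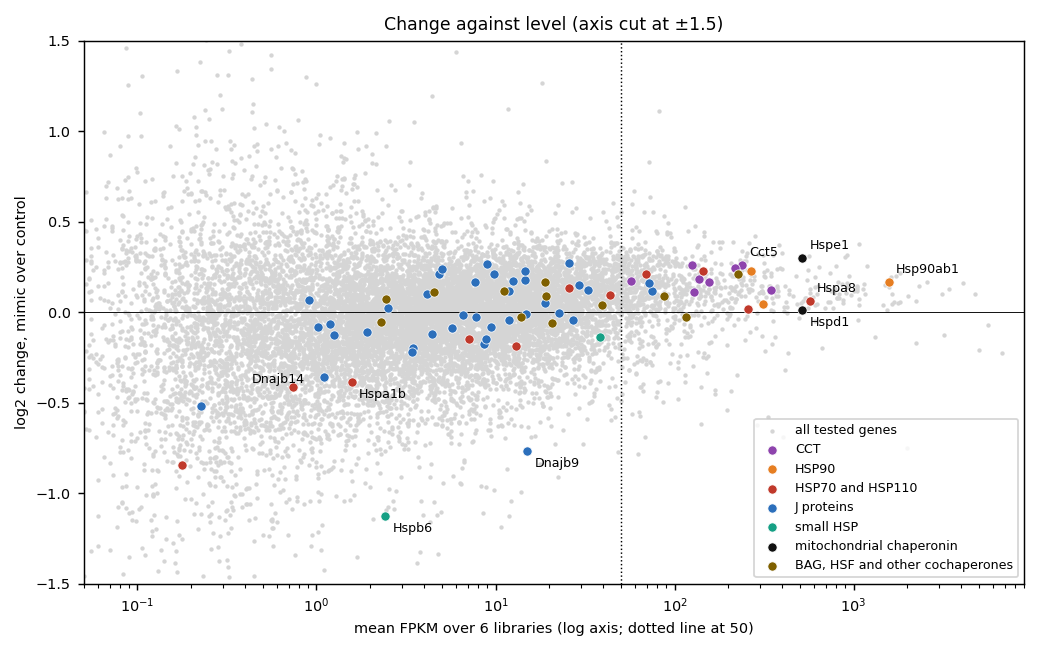
Log2 change, mimic over control, against the mean FPKM over the 6 libraries on a log axis, for all tested genes (grey) and 77 tested members by family (colours); the dotted line marks 50 FPKM and the vertical axis ends at 1.5 either side of 0. The 22 members right of the line lie between -0.03 and 0.30, while Hspb6 and Dnajb9 lie far below 0 at lower levels.

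All 8 subunits of the cytosolic chaperonin rose, by 8.01% to 19.9%. Cct5 had 815, 837 and 823 CPM in mimic libraries and 682, 683 and 699.8 CPM in control libraries. Every mimic library was above every control library, a log2 change of 0.26 ± 0.019 (SE; adjusted p = 4.63e-13, edgeR). Cct6a had 545, 553 and 548 CPM in mimic and 445, 465 and 464 CPM in control libraries, again with no overlap. Cct8 had 831, 844 and 832 CPM in mimic libraries, against 690.4, 714 and 709 CPM in control libraries. The log2 changes of Cct6a and Cct8 were 0.26 and 0.25.

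The other subunits rose less. Cct4 changed by 0.19 on the log2 scale, Cct7 and Tcp1 by 0.17 each, Cct2 by 0.12 and Cct3 by 0.11. Cct2, the subunit with the highest level per length (356 FPKM in mimic and 335 FPKM in control libraries), had 1043, 1065 and 1041 CPM in mimic and 962, 982 and 952 CPM in control libraries. The groups did not overlap for any of the 8, where over all tested genes 27% had every mimic library above every control library and 27.9% every one below. All 8 have over 50 FPKM, and of the 915 tested genes at that level 68.3% had every mimic library above. Together the 8 took 0.622% ± 0.00349 of counts in mimic and 0.57% ± 0.00497 in control libraries (SD, n = 3 each). All 8 also rose with total counts only, with a median of 0.12 in place of 0.18. Seed sites of 7 or 8 bases were found in none of the 7 subunits whose 3' UTR is annotated. Cct6b and Cct8l1, relatives known from the testis, had at most 6 counts in a library and were not tested.

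The pair Hspd1 and Hspe1, which build the chaperonin of mitochondria, parted. Hspe1 had 929, 979 and 972 CPM in mimic libraries and 778, 785 and 774 CPM in control libraries, a change of 0.30 ± 0.019 on the log2 scale (SE; adjusted p = 5.18e-14, edgeR). Hspd1 had 1567, 1552 and 1560 CPM in mimic libraries, against 1544, 1556 and 1542 CPM in control libraries. The groups overlapped for Hspd1 and did not for Hspe1. The log2 change of Hspd1 was 0.01 ± 0.017 (SE; adjusted p = 0.584, edgeR), and with total counts only it was -0.04 with an adjusted p of 0.0216 (edgeR). The Hspe1 to Hspd1 ratio within a library was higher in all 3 mimic than in all 3 control libraries, by 0.29 on the log2 scale. Its p was 0.1 (exact permutation test, two-sided), the smallest that 3 against 3 libraries allow. This pair was chosen after its values were seen, so the p cannot serve as a test of the difference. Per length their levels were close: 564 FPKM of Hspe1 in mimic and 469 in control libraries, and 511 FPKM of Hspd1 in mimic and 519.6 in control libraries.

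Hspd1 and Hspe1 lie on opposite strands of chromosome 1. They are head to head from an Hspd1 start 216 bases from that of Hspe1. Another annotated Hspd1 start has the window chr1:55088194-55088493 on the minus strand, and the 216 bases do not apply to it. The promoter window of Hspe1 is shown because it lies across its own start and the first of these Hspd1 starts. It spans chr1:55087898-55088197 (RefSeq, GRCm38.p6, plus strand), and the window of that Hspd1 start covers most of the same bases on the other strand. Capitals mark matches to the heat shock element, written as GAA and its reverse complement TTC in turn, 3 units in all with NN between neighbours, beginning with either. The 2 forms are reverse complements, so both strands are covered, and their matches overlap here.
Hspe1 promoter: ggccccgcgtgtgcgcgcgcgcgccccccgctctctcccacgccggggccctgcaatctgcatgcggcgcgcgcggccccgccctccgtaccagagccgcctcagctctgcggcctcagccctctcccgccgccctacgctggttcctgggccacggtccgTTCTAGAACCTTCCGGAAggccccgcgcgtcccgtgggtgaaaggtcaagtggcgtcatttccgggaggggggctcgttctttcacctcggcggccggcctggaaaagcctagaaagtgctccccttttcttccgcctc

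The element was found in the window of 4 of the 70 members with a RefSeq promoter entry (5.71%), against 0.662% of all 27025 genes with one. The 4 were Dnajb6, Hspd1, Hspe1 and Hsph1, of which Hspe1 and Hsph1 rose and the others did not pass. The matches of Hspd1 and Hspe1 are the same stretch, counted for both genes. No match to this strict pattern was found in the windows of Hspa1a, Hspa1b, Hspb1 and Dnajb1, which heat induces through HSF1. Members without an entry, among them Hsp90aa1, Hsp90ab1 and Hspa8, were not searched. The window of the other Hspd1 start, chr1:55088194-55088493, held no match. Of the 58 tested members with an entry and no match, 22 rose and 13 fell. A match is a description of these letters and not a measured site.

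Both cytosolic HSP90 genes rose, while the call of the ER member depended on the setting. Hsp90ab1, the constitutive form and the most abundant member (1647 FPKM in mimic and 1502 in control libraries), had 5698, 5759 and 5653 CPM in mimic libraries and 5151, 5046 and 5031 CPM in control libraries. Hsp90aa1, the inducible form, had 1274, 1331 and 1300.1 CPM in mimic and 1097, 1131 and 1112 CPM in control libraries. Their log2 changes were 0.17 ± 0.016 and 0.23 ± 0.019 (SE; adjusted p = 1.59e-10 and 1.27e-11, edgeR). No mimic library overlapped a control library for either gene. Hsp90b1 of the ER had 1513, 1436 and 1419 CPM in mimic libraries and 1427, 1431 and 1376 CPM in control libraries, which overlap (log2 change 0.04, adjusted p = 0.0719, edgeR). Hsp90b1 passed as higher in the fit blocked by replicate number (adjusted p = 0.0198, edgeR), with DESeq2's size factors, with no filter, and without mimic replicate 2 or 3 (log2 changes of 0.04 to 0.07), and had -0.01 with total counts only.

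The ratios of Hsp90aa1 and Hsp90ab1 to Hsp90b1 were higher in the mimic libraries by 0.18 and 0.12 on the log2 scale. Each had p = 0.1 (exact permutation test, two-sided), which is no test here because the pairs were chosen after their values were seen. The HSP90 cochaperone genes Stip1 and Ahsa1 also rose. Stip1 rose by 15.7%, with 591, 577 and 583 CPM in mimic and 507, 505.5 and 500.3 CPM in control libraries. Ahsa1, which activates the ATPase of HSP90, rose by 6.6%, a call lost with total counts only (adjusted p = 0.145, edgeR) and with limma on FPKM. Hspbp1, an HSP70 nucleotide exchange factor, and Hspbap1 did not pass, at log2 changes of 0.09 and 0.08, though Hspbp1 passed as higher with DESeq2's size factors and without mimic replicate 1.

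**Figure D3:**
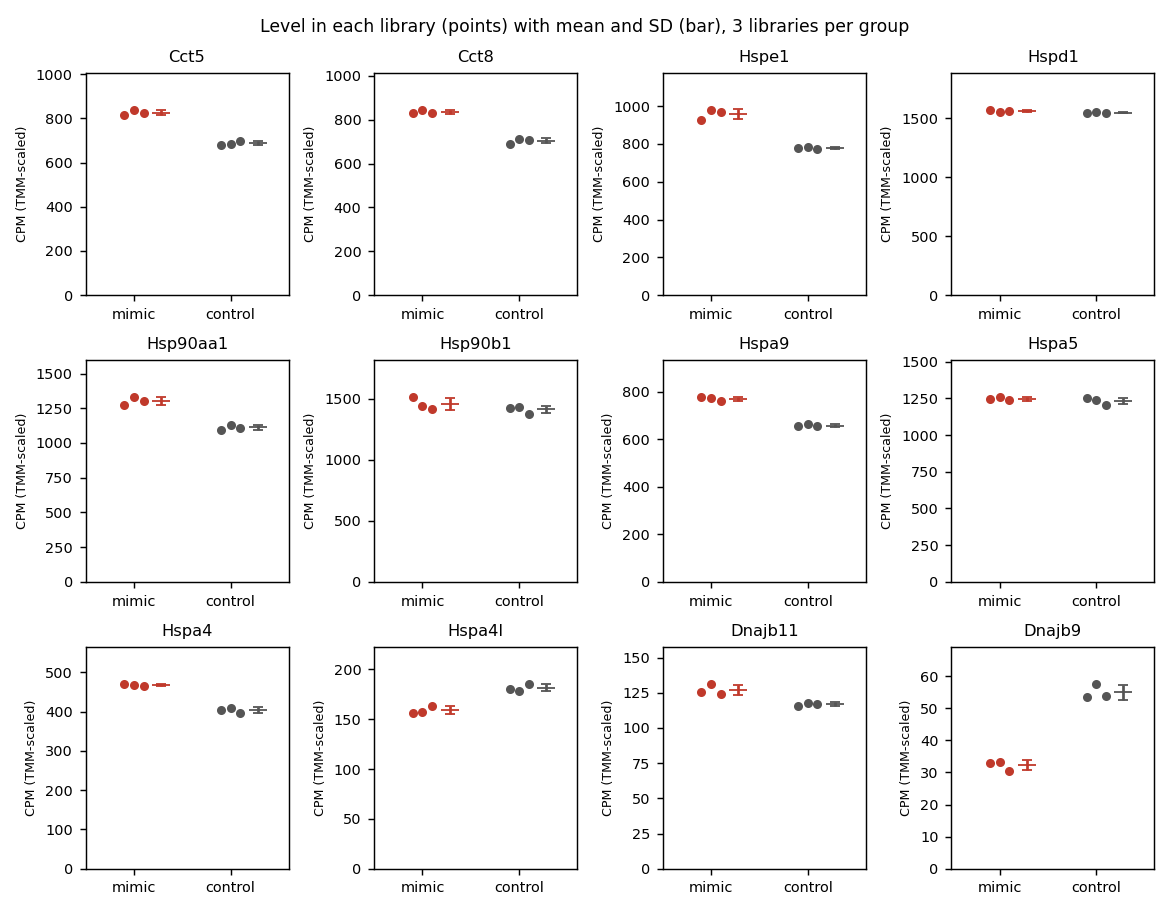
TMM-scaled CPM in each library for 12 members, mimic left and control right, with the mean and SD of 3 libraries. The mimic libraries lie above the control libraries for Cct5, Cct8, Hspe1, Hsp90aa1, Hspa9, Hspa4 and Dnajb11 and below them for Hspa4l and Dnajb9, while Hspd1, Hsp90b1 and Hspa5 overlap.

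The HSP70 and HSP110 genes split evenly, with 5 of 12 tested members higher, 5 lower and 2 not past the threshold. That is 41.7% each way, beside 24.3% risen and 24.8% fallen of all tested genes. With total counts only, 3 were higher and 6 lower. Hspa8 (HSC70), the constitutive cytosolic form, had 2843, 2909 and 2816 CPM in mimic and 2728, 2762 and 2722 CPM in control libraries. Its increase of 4.34% was the smallest among the called HSP70 genes and was lost with total counts only (log2 change 0.0048, adjusted p = 0.83, edgeR) and with limma on FPKM. Hspa9 (mortalin), the HSP70 of mitochondria, had 778, 772 and 762 CPM in mimic and 655, 664 and 655 CPM in control libraries. That change, 0.23 ± 0.018 on the log2 scale (SE; adjusted p = 5.23e-12, edgeR), was the largest increase in the family. Hspa5, its ER relative, had 1244, 1259 and 1236 CPM in mimic libraries and 1249, 1238 and 1207 CPM in control libraries, with overlap and a log2 change of 0.02. The Hspa9 to Hspa5 ratio, a pair also chosen after its values were seen, was higher in mimic libraries by 0.21 on the log2 scale (exact permutation test, two-sided, p = 0.1).

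Among the HSP110 genes, which recharge HSP70 with ATP, close relatives went opposite ways. Hspa4 (Apg-2) had 470.4, 467 and 465 CPM in mimic and 405, 410.04 and 397 CPM in control libraries, a log2 change of 0.21 ± 0.02 (SE; adjusted p = 1.56e-10, edgeR). Hspa4l (Apg-1) had 157, 157 and 164 CPM in mimic libraries, against 181, 178 and 185 CPM in control libraries, and fell by 0.19 on the log2 scale. The groups did not overlap for either. The Hspa4 to Hspa4l ratio, a pair also chosen after its values were seen, was higher in mimic libraries by 0.40 on the log2 scale (exact permutation test, two-sided, p = 0.1). Hsph1, the third HSP110 gene among the members, rose by 6.65% and the ribosome-associated Hspa14 by 9.68%. The Hsph1 call was lost with total counts only and with limma on FPKM.

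Hspa1b, Hspa2 and Hspa1l were low in these cells and lower in mimic libraries. Hspa1b, the stress-inducible HSP70, had 4.29, 4.7 and 4.11 CPM in mimic and 6.28, 5.51 and 5.35 CPM in control libraries. It fell by 0.39 ± 0.112 on the log2 scale (SE; adjusted p = 0.00471, edgeR). Its near-identical copy Hspa1a had at most 5 counts in a library, and how reads were shared between the copies is not given in the sources used here. Hspa2, known from the testis, had 2.08, 1.77 and 1.83 CPM in mimic and 2.39, 2.91 and 2.29 CPM in control libraries. Hspa1l, at under 1 CPM in each library, also passed (adjusted p = 0.0452, edgeR). Leaving out 1 library ended the Hspa2 call for mimic replicates 2 and 3 and control replicates 1 and 2 (adjusted p up to 0.205). It ended the Hspa1l call for mimic replicates 1, 2 and 3 and control replicate 3 (adjusted p up to 0.337, edgeR). Both calls were also lost with DESeq2 and with no filter on low counts, and that of Hspa1l with limma on FPKM.

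Of the 6 small heat shock protein members, which hold unfolding proteins without ATP, 2 were tested and both fell. Hspb6 (HSP20), known from muscle, had 4.17, 3.79 and 3.97 CPM in mimic libraries, against 7.77, 8.91 and 9.28 CPM in control libraries. Its log2 change of -1.12 ± 0.104 (SE; adjusted p = 1.55e-10, edgeR) was the lowest of all tested members, and the groups were far apart. Hspb8 (HSP22), which works with Bag3 in autophagy of damaged proteins, had 80.1, 82.9 and 81.7 CPM in mimic and 90.1, 89.8 and 88.9 CPM in control libraries, a fall of 0.13 on the log2 scale. Neither has a seed site of 7 or 8 bases, but Hspb6 holds 2 matches of 6 bases (GCACTT) in its 3' UTR. Hspb1 (HSP27) had 1 count in each mimic library and 1, 0 and 0 in control libraries. At this depth 3 counts correspond to 0.103 to 0.118 CPM in mimic libraries and 0.091 to 0.106 CPM in control libraries. Hspb2, Hspb7 and Hspb9 had at most 5 counts in a library.

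J proteins, which choose the clients of HSP70, made up 40 of the 87 members. Of 38 tested 14 rose and 7 fell (36.8% and 18.4%, beside 24.3% and 24.8% of all tested genes). In the DNAJA class, which has the domain order of bacterial DnaJ, Dnaja1 had 303, 309 and 304 CPM in mimic and 279, 272 and 273 CPM in control libraries, and rose by 11.2%. It holds an 8mer site. Dnaja2, with a 7mer-m8 site, had 259, 268 and 269.8 CPM in mimic and 243, 246 and 246 CPM in control libraries and rose by 8.53%. Both had groups without overlap. The mitochondrial Dnaja3 (Tid1) and the low Dnaja4 did not pass, at log2 changes of -0.01 and -0.07.

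In the DNAJB class 2 of 9 tested members rose (22.2%) and 3 fell (33.3%), beside 24.3% and 24.8% of all tested genes. With total counts only 5 fell. Dnajb9 (ERdj4), an ER partner of Hspa5, had 33.1, 33.2 and 30.6 CPM in mimic libraries, against 53.5, 57.6 and 53.7 CPM in control libraries. That is a log2 change of -0.77 ± 0.042 (SE; adjusted p = 1.28e-15, edgeR), the smallest adjusted p of all members, with a wide gap between the groups. Dnajb11 (ERdj3), another ER partner of Hspa5, had 126, 131 and 124 CPM in mimic and 115, 118 and 117 CPM in control libraries, higher by 8.67%. The Dnajb11 call was lost with limma on FPKM (adjusted p = 0.0634 and 0.0616 with pseudocounts of 1 and 0.1). The Dnajb11 to Dnajb9 ratio, a pair also chosen after its values were seen, was higher in mimic libraries by 0.89 on the log2 scale (exact permutation test, two-sided, p = 0.1).

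The ER membrane members Dnajb12 and Dnajb14, which are close relatives, also parted. Dnajb12 had 61.8, 59.4 and 57.4 CPM in mimic and 51.8, 52.2 and 53.8 CPM in control libraries, and rose by 13.1%. Dnajb14, with an 8mer site, had 17.4, 17 and 17.5 CPM in mimic libraries, against 20.9, 23.8 and 22 CPM in control libraries, a fall of 0.36 on the log2 scale. Dnajb4, a cytosolic and heat-inducible member, fell by 0.20. Dnajb1 (HSP40), the main heat-induced partner of HSP70, had 81.9, 84.7 and 81.2 CPM in mimic and 83, 82.2 and 83.7 CPM in control libraries, which overlap.

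The DNAJC class holds J proteins with special tasks. Of 25 tested members 10 rose and 4 fell (40% and 16%, beside 24.3% and 24.8% of all tested genes). With total counts only, 7 rose and 7 fell. Dnajc2 (MPP11), which sits on ribosomes, had 164, 167 and 155 CPM in mimic and 134, 134 and 136 CPM in control libraries, an increase of 20.6%. Dnajc7, a cytosolic member that binds both HSP70 and HSP90, rose by 17.1%, and Dnajc8, a nuclear protein of the spliceosome, by 11.9%. Dnajc21 and Dnajc17 rose by 0.17 and 0.21 on the log2 scale, the Dnajc17 call being lost with total counts only. Those that fell were Dnajc3 (P58IPK) and Dnajc14 of the ER, the endosomal Dnajc13 (RME-8) and Dnajc27, with log2 changes of -0.17, -0.08, -0.15 and -0.22. Dnajc1 and Dnajc16, the other members with an 8mer site, had log2 changes of -0.13 and -0.11 and did not pass (adjusted p = 0.112 and 0.191, edgeR). With total counts only both passed as lower (adjusted p = 0.0202 and 0.0434, edgeR), as did Dnajc1 without mimic replicate 3. The Dnajc14 call was lost without mimic replicate 1, 2 or 3 or without control replicate 3 (adjusted p up to 0.223, edgeR), and with DESeq2, its size factors or no filter on low counts. The 17 J protein genes that did not pass had log2 changes of -0.52 (Dnajc28) to 0.10 (Dnajc25), and Dnajb7 and Dnajc6 had at most 4 counts in a library and were not tested.

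By compartment, the mitochondrial members had the highest median and the ER members a median below 0. Among all tested genes 24.3% rose and 24.8% fell, and among those with at least 50 FPKM 66.9% and 16.2%. Of 9 tested mitochondrial members 6 rose (66.7%) and none fell, with a median log2 change of 0.23. Besides Hspe1 and Hspa9 these were 4 J proteins: Dnajc11 of the inner membrane organizing complex, Dnajc15 and Dnajc19 of the import motor, and Dnajc30. Dnajc11 had 116, 122 and 119 CPM in mimic and 98.4, 98.8 and 99.9 CPM in control libraries (log2 change 0.26). The Dnajc30 call was lost without mimic replicate 2 or control replicate 1 or 2, with total counts only, with DESeq2 and with limma on FPKM (adjusted p up to 0.21).

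Of 49 tested members of the cytosol and nucleus 25 rose (51%) and 7 fell (14.3%), with a median of 0.09. Of 13 tested ER members 2 rose (15.4%) and 5 fell (38.5%), with a median of -0.08. The median was -0.01 for all 13779 tested genes, of which 24.3% rose and 24.8% fell. With total counts only, 5 mitochondrial members rose and 1 fell (median 0.17), 20 cytosolic and nuclear members rose and 14 fell (median 0.04), and 2 ER members rose and 7 fell (median -0.14). Levels differed too: Hspa5 and Hsp90b1 were the only ER members above 50 FPKM, and neither passed in the reported fit. The 3 members of vesicles and the 5 not assigned to a compartment are too few to describe as sets. The difference between compartments was not tested.

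**Figure D4:**
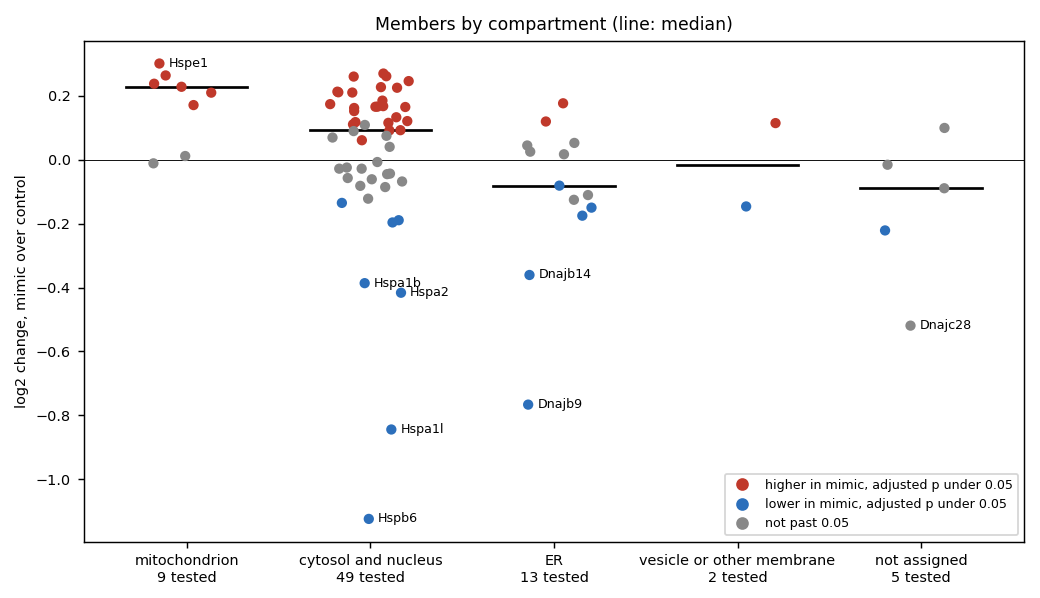
Log2 change of 77 tested members, mimic over control, by the compartment of their proteins, with the median of all tested members as a line; red marks members higher and blue members lower at an adjusted p under 0.05. The medians are 0.23 for the mitochondrion, 0.09 for cytosol and nucleus and -0.08 for the ER, where Dnajb9 and Dnajb14 are the lowest.

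Seed sites were counted by compartment. In the ER set 6 of 13 members had a seed site of 7 or 8 bases. Dnajb9, Dnajb14 and Hspa13 fell, and none of the 6 rose. The others with a site, Dnajc1, Dnajc16 and Dnajc18, did not pass. Of the 7 ER members without a site 2 fell and 2 rose. In the cytosol and nucleus 4 of 48 members held a site, and 2 of these rose, Dnaja1 and Dnaja2, while Bag2 and Dnajb6 did not pass. Over all compartments 4 of the 14 members with a site rose and 4 fell, with a median log2 change of -0.04. With total counts only 3 of the 14 rose and 8 fell. Of the 12 members whose best match has 6 bases, 2 rose (16.7%) and 4 fell (33.3%), with a median of -0.07. Among all tested genes with such a best match 25.1% rose and 29.9% fell. Of the 51 members with no site of 6 bases or more, 27 rose and 6 fell, with a median of 0.11. Among all tested genes, those with a site of 7 or 8 bases rose in 18.4% and fell in 38.1% of cases, against 30.9% and 23.4% for genes with no site of 6 bases or more.

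Hspa13 (STCH), an atypical HSP70 of the secretory pathway whose best site is a 7mer-m8, had 53.3, 50.9 and 52.5 CPM in mimic and 58.7, 61 and 54.4 CPM in control libraries. It fell by 0.15 ± 0.039 on the log2 scale (SE; adjusted p = 0.00189, edgeR), and the groups did not overlap. Dnajc27, which also holds a 7mer-m8 site, had 18, 18.6 and 18 CPM in mimic libraries, against 21.4, 21.6 and 20.7 CPM in control libraries. Members with a site could also be higher: Dnajc15, with a 7mer-A1 site, rose by 15.7%, and Dnajc5, the cysteine string protein of vesicles, with a 7mer-m8 site, by 8.3%. The Dnajc5 call was lost with total counts only (adjusted p = 0.0876, edgeR).

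The regulators moved little. Hsf1 had 90.5, 96.4 and 93.9 CPM in mimic and 86.9, 82.4 and 89.7 CPM in control libraries, and rose by 0.12 ± 0.032 on the log2 scale (SE; adjusted p = 0.00342, edgeR), a call lost with total counts only and with limma on FPKM. Hsf2 had 26, 25.5 and 22.7 CPM in mimic and 24, 27.6 and 25.5 CPM in control libraries, with overlap. Of the 6 BAG genes 1 rose (16.7%) and none fell, beside 24.3% risen and 24.8% fallen of all tested genes. With total counts only 3 of the 6 fell, a scaling under which 4444 of all 13779 tested genes fell. The one that rose was Bag5, with 55, 58.3 and 58.3 CPM in mimic and 50.8, 51.1 and 51.1 CPM in control libraries. Bag1, Bag2, Bag3, Bag4 and Bag6 did not pass, at log2 changes of -0.03, -0.03, -0.06, 0.11 and 0.04. Bag4 passed as higher in the fit blocked by replicate number (adjusted p = 0.0498, edgeR), with no filter, and without mimic replicate 1 or 3 or control replicate 3, and Bag3 passed as lower with limma on FPKM. Bag3, which HSF1 drives after heat, had 59.3, 56.7 and 61.8 CPM in mimic libraries, against 60.7, 63.9 and 61.1 CPM in control libraries.

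Genes that HSF1 is known to induce included risen and fallen ones. Of 22 on a list that shares most of its genes with the members, 20 were tested, of which 12 rose, 5 fell and 3 did not pass, that is 60% risen and 25% fallen beside 24.3% and 24.8% of all tested genes. Several genes of the list, among them Hspa8, Hsp90ab1 and Ubb, had over 50 FPKM. Of all 915 tested genes at that level 66.9% rose and 16.2% fell, and the list was not split by level. The 3 that did not pass were Dnajb1, Hspd1 and Bag3. Ubb, which encodes chains of ubiquitin and is not among the members, rose by 0.30 on the log2 scale, with 1075 ± 23.7 CPM in mimic and 874 ± 13.2 CPM in control libraries (SD, n = 3 each).

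Chaperone partners whose symbols the definition does not cover were counted from a separate list: of 43 tested, 23 rose and 6 fell (53.5% and 14%, beside 24.3% and 24.8% of all tested genes), with a median log2 change of 0.09. All 6 prefoldin genes on the list (Pfdn1, Pfdn2, Vbp1, Pfdn4, Pfdn5 and Pfdn6), which pass actin and tubulin chains to CCT, rose, by 0.09 to 0.35 on the log2 scale. Pfdn2, Vbp1, Pfdn5 and Pfdn6 had over 50 FPKM in every library, and Pfdn4 had 20.4 to 24.6 FPKM. Other partners, among them Ptges3 and Fkbp4, were also above 50 FPKM. Of all 915 tested genes with a mean of at least 50 FPKM, 66.9% rose and 16.2% fell. Pfdn1 had 79.997 ± 0.805 CPM in mimic and 62.8 ± 0.85 CPM in control libraries, and Pfdn6 171 ± 3.92 CPM in mimic and 139 ± 2.86 CPM in control libraries (SD, n = 3 each). Ppid, a cyclophilin that binds HSP90, rose by 0.30, with 383 CPM in mimic and 310 CPM in control libraries. The small heat shock protein gene Cryab was low, with 4.64 ± 0.267 CPM in mimic and 3.64 ± 0.487 CPM in control libraries (SD, n = 3 each). It rose by 0.35 ± 0.125 (SE; adjusted p = 0.022, edgeR), unlike the 2 tested small heat shock protein members. Those that fell most were Ahsa2, a relative of Ahsa1 (log2 change -0.24), the ubiquitin ligase gene Stub1 (CHIP, -0.19), the ER gene Sdf2l1 (-0.16) and the mitochondrial disaggregase gene Clpb (-0.16). Other ER genes on the list did not fall: Hyou1, an HSP110 relative, rose by 0.14 (adjusted p = 4.26e-06, edgeR), and Sil1 did not pass, at -0.02. Trap1, the HSP90 of mitochondria, did not pass, at a log2 change of -0.05.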

How the data were processed

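The 6 libraries were grouped from their titles. Raw counts and FPKM (2 decimals), each as 1 table over all libraries, are the values deposited by the authors. HISAT2, DESeq2 and the build GRCm39 are named in the submitters' processing notes. Which counter and annotation release were used, and whether counting used strand, is not given in the sources used here. Per the labels' protocols the library kit is directional. The count test was that of edgeR 4.0.16 (R 4.3.3: filterByExpr, TMM, estimateDisp, glmQLFit, glmQLFTest, Benjamini-Hochberg adjustment over 13779 genes, threshold 0.05), after a check on simulated data. CPM values are TMM-scaled and not per length, so levels of different genes were compared only as FPKM. The within-library ratios are of CPM, and only their difference between groups, in which length cancels, is given. The SE is the log2 change divided by the square root of F. Within-library ratios were tested by exact permutation for 6 pairs chosen after their values were seen, and all 6 have a Benjamini-Hochberg adjusted p of 0.1. Because of that choice these p-values describe the separation and do not test it. Compartments were assigned by hand from general knowledge. Members and lists were chosen with earlier results of these data known. The rule for named genes takes all CCT, HSF and BAG genes, and in every other family the most abundant and up to 4 called members with the largest change and at least 2 CPM. It adds members with an 8mer site and up to 4 partners in each direction. Other members and partners named were chosen after their values were seen. The filter removed 9 members, with 2 to 18 counts each over all libraries. No 2 libraries of a group agreed within sampling noise (mean chi-square per gene 1.86 to 2.22). Alternatives were other scalings, filters and thresholds, DESeq2 1.42.0, limma 3.58.1 on FPKM as log2 with a pseudocount of 1 or 0.1, a block for the replicate number, and each library left out. Single results for 2 genes are not reported here, and the one of them that is a member is counted but not drawn.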

Additional observations from a re-analysis of the deposited data

How the results depend on the processing

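Between 33 and 36 members rose and 11 to 14 fell when each library was left out in turn, and all 8 CCT subunits rose in every alternative run. With total counts only 24 members fell in place of 14, while the other alternatives gave 11 to 15; the cause was not tested, but this scaling moves the median of all genes from -0.01 to -0.06 on the log2 scale. Members not called in the reported fit changed sign with total counts only: Bag6 to -0.0159, Dnajc10 to -0.0036, Dnajc18 to -0.0311, Hsp90b1 to -0.0115, Hspa5 to -0.039 and Hspd1 to -0.0446 on the log2 scale. With limma on FPKM, at pseudocounts of 1 and 0.1, Dnajc18 had -0.004 and -0.0047, Hspa5 -0.018 and -0.0181, and Hspd1 -0.0236 and -0.0236. With 1 library left out, uncalled members took both signs: Dnaja3 from -0.0292 to 0.0122, Dnaja4 from -0.1289 to 0.0218, Dnajb1 from -0.0239 to 0.0116, Dnajb5 from -0.031 to 0.1622, Dnajc18 from -0.0359 to 0.079, Dnajc24 from -0.1141 to 0.061, Dnajc4 from -0.0939 to 0.0461 and Hsf2 from -0.1024 to 0.0088. The cause of these changes was not tested. Of 1089 member values under alternatives, 991 kept direction and side of the threshold. The labels do not say whether replicate numbers pair the samples. Same-numbered deviations correlated weakly, at 0.02, 0.07 and 0.05, but each library correlated best with its own number, a hint of pairing from the data only. With the replicate number as a block 36 members rose and 14 fell, Bag4 and Hsp90b1 being the 2 added. With only the transcript of the longest coding sequence, 13 members in place of 14 held a seed site. That is 16.9% of members, beside 18.6% of all tested genes with a 3' UTR. Depth leaves 9 members untested.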
